A study of Mus musculus with 7 samples.

Results

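The collagen, laminin and inter-alpha-trypsin inhibitor genes were taken by symbol from the deposited gene counts: collagens as Col, a number, a and a number, laminins as Lama, Lamb or Lamc with a number, and inter-alpha-trypsin inhibitor heavy chains as Itih with a number, without pseudogenes. They numbered 60 of 46603 gene rows, 44 collagens, 11 laminins and 5 heavy chains. Of these, 48 had at least 10 reads in at least 3 of the 7 libraries and 12 did not. The cells were TRAMP-C1, a mouse prostate tumour line labelled prostate epithelial, of the strain C57BL/6-TgN(TRAMP)8247Ng; TRAMP mice carry viral oncogenes under a prostate-specific promoter, so every group shares that transgene. The groups were 1 WT library with no vector named in its label, 3 libraries of cells given an empty lentiviral vector, and 3 of cells given the PAX8-NFE2L2 fusion, both in the Lv229 plasmid. In both vector groups virus stayed on the cells for 12 h, and the cells then grew for 24 h in fresh medium. No such times are given for WT. Polyadenylated RNA was then sequenced in 50 bp single-end reads. No label names the promoter of the vector, the share of cells that took it up, or whether the replicates were separate cultures, so p-values measure the spread between these libraries, which may be technical. The series was designed to compare fusion with empty vector.

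Collagens are trimers whose chains carry glycine at each start of a repeating triplet, which lets them wind into a triple helix. The fibrillar types I, III and V form the fibres of stroma, type IV forms the sheet of the basement membrane, and types such as XII sit on the surface of fibrils and link them to other matrix. Laminins are trimers of an alpha, a beta and a gamma chain that cover the basement membrane on the side of the epithelium and bind integrins. Inter-alpha-trypsin inhibitor heavy chains are secreted proteins that can be transferred onto hyaluronan, the large matrix sugar, with the help of the protein encoded by Tnfaip6. NFE2L2, also called NRF2, is the transcription factor that switches on antioxidant genes through the antioxidant response element, and PAX8 is a paired box transcription factor.

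Coding sequence is shown for Col12a1, the collagen that rose, and for Col3a1, a fibrillar collagen. Their glycine runs differed in length, which the printed stretches alone do not show. Both stretches are the first 90 bases of the longest run of glycine triplets in the transcript with the longest coding sequence (GENCODE M21, GRCm38), with each glycine codon that starts a triplet in capitals. That run covered 32 triplets in Col12a1, coding bases 8413 to 8502 being shown, and 344 triplets in Col3a1, coding bases 490 to 579 being shown.
Col12a1: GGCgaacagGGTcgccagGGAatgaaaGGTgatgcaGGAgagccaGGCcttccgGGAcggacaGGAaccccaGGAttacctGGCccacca
Col3a1: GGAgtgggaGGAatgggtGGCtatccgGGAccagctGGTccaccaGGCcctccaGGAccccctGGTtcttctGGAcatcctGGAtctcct
Runs of at least 5 such triplets made up 8.2% of the 3064 codons of Col12a1 and 73.2% of the 1463 codons of Col3a1. In the 6 type IV genes the runs were broken into shorter pieces, the longest of 39 to 66 triplets, yet covered 75.4 to 80.0% of the codons. No laminin or heavy chain gene had such a run.

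The 250 bases before the start site are shown for 3 members, from RefSeq (GRCm38.p6), since the fusion partner NRF2 binds DNA. The RefSeq promoter table matched 45 of the 60 members, and Col12a1 was not among them. Itih5 (chr2:10153293-10153542, plus strand), the member called lower with the fusion than with empty vector, is shown with the GC box GGGCGG in capitals. Col7a1 (chr9:108953336-108953585, plus strand) and Col6a5 (chr9:105960644-105960893, minus strand) are shown with their match to the antioxidant response element core TGACNNNGC in capitals, which in Col6a5 lies on the opposite strand. None of these windows overlaps an annotated exon.
Itih5: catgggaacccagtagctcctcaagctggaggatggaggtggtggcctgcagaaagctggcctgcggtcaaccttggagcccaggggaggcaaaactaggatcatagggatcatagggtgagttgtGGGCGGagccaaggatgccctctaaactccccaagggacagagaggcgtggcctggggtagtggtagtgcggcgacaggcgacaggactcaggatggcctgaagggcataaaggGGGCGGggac
Col7a1: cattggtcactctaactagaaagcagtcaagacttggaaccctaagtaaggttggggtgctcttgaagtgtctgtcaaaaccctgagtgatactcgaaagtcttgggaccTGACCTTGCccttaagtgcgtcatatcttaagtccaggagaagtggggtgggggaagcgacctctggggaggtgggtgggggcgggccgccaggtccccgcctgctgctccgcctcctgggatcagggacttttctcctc
Col6a5: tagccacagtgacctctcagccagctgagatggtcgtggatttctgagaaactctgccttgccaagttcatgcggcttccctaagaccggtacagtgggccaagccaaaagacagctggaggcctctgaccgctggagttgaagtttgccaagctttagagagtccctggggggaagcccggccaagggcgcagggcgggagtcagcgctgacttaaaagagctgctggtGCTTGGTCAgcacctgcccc
Searched on both strands over 250 upstream bases, TGACNNNGC matched 7 of the 45 members (15.6%: Col24a1, Col4a2, Col6a2, Col6a5, Col7a1, Col9a2 and Itih3) and 10.2% of all 32851 promoters in the table. The AP-1 site TGANTCA, whose letters can overlap that core, matched 2 members (Col6a1 and Itih2, 4.44%) and 6.75% of all promoters. The GC box matched 25 members (55.6%) and 32.7% of all promoters. A member counted if any of its promoters in the table matched, whereas the share of all promoters counts each promoter. The 2 kinds of share are thus not like for like. A match describes letters only and shows no binding.

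Total gene counts per library ranged from 26368182 to 59597170, and 16731 genes passed the filter for testing. Both libraries numbered 3 were run on other lanes (1 and 2) than the rest (5 and 6), held the fewest counts and had the most reads with several alignments, 44.8 and 45.3% against 36.1 to 38.9%. Mouse Pax8 lay at 6.4, 8.53 and 5.57 CPM (counts per 1000000 gene counts) in the fusion libraries, at no more than 0.217 CPM with empty vector and at 0.0401 CPM in WT, in the order the labels call for. The NRF2 target Nqo1 lay at 230, 248 and 343 CPM with the fusion against 71.9, 55.2 and 46.1 CPM with empty vector and 85.6 CPM in WT. Of 21 prostate epithelial markers 13 stayed under 1 CPM in all 7 libraries, Epcam among them. The 21 together summed to 154.5 to 182.5 CPM with empty vector, 140.5 to 178.9 CPM with the fusion and 178.9 CPM in WT. The 16 mesenchymal markers summed to 4832 to 5453 CPM with empty vector, 4468 to 4751 CPM with the fusion and 7719 CPM in WT, with Vim at 3003 CPM with empty vector and 2524 CPM with the fusion on average and at 4027 CPM in WT. Endothelial markers summed to at most 1.18 CPM and immune markers to at most 4.28 CPM.

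The 60 members together took 2.01, 2.17 and 1.43% of all gene counts in the empty vector libraries, 1.16, 1.97 and 1.35% in the fusion libraries and 2.08% in WT. The groups overlapped. Col1a1, Col1a2 and Col3a1 alone held 58.0 to 69.1% of those counts. Per kilobase of transcript, Col1a2 stood highest with empty vector at 910 ± 256 CPM per kb (SD, n = 3). Next came Col3a1 at 771 ± 68, Col1a1 at 544 ± 240 and Col5a2 at 184 ± 32. The ranges of mean ± SD overlapped for the first 3. Within each of the 7 libraries Col1a2 still lay above Col1a1 (ratio of Col1a1 to Col1a2 0.430 to 0.727). After Col5a2 came Col6a1 (157), Col6a2 (115), Lamb1 (92.2) and Col4a1 (66.6 CPM per kb). The most abundant laminin genes were Lamb1 and Lamc1 (42.8 CPM per kb).

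**Figure D1:**
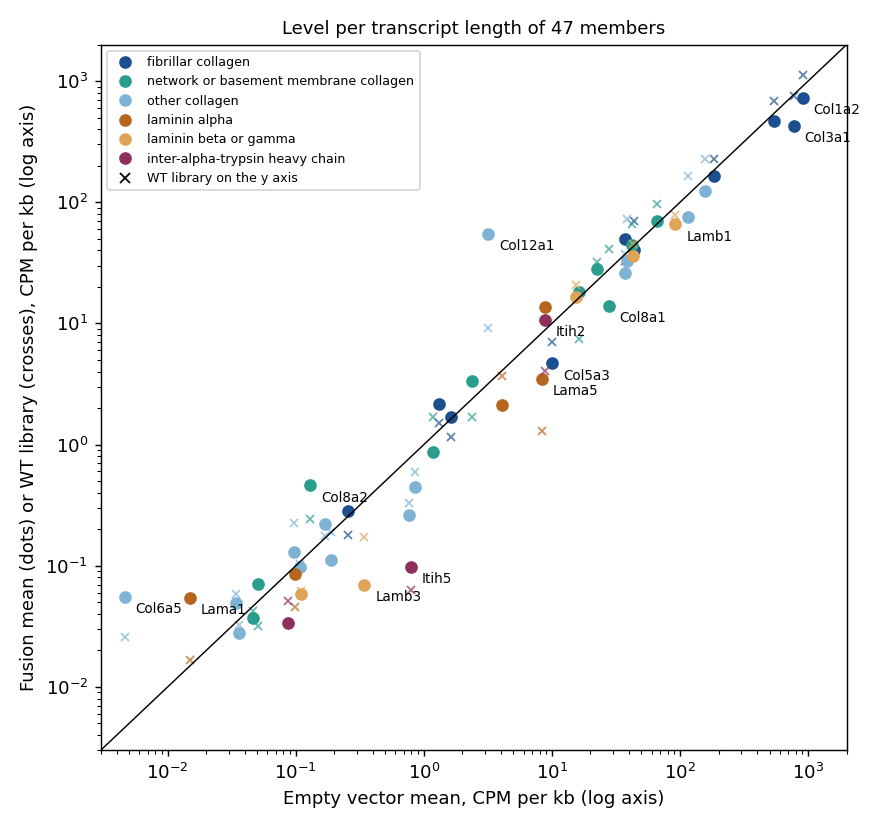
Mean level per transcript length (CPM per kb, both axes logarithmic) of 47 members with reads, empty vector on the x axis against fusion (dots) or the WT library (crosses) on the y axis, coloured by class, with the line of equal level. Col12a1 lies far above the line (3.18 with empty vector, 54.7 with the fusion), Itih5 and Lamb3 lie below it, and Col1a1, Col1a2 and Col3a1 lie within 1.8 times of it.

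Across the members, 1 gene was higher and 1 lower with the fusion than with empty vector. They were Col12a1, the chain of type XII collagen, and Itih5, a heavy chain gene whose WT level lay next to the fusion libraries. These are 2 of 47 tested members, where 2.04% of all tested genes were called (1.69% higher and 0.353% lower) at a Benjamini-Hochberg adjusted p below 0.05 in edgeR's quasi-likelihood fit. The median log2 fold change was -0.20 over the 47 members and 0.01 over all tested genes, and 27 members were fitted below 0 and 20 above. All 3 fusion libraries lay above all 3 empty vector libraries for 1 member (9.15% of all tested genes) and below them for 7 members (6.66% of all tested genes): Col3a1, Col7a1, Col16a1, Lama2, Lamb3, Itih4 and Itih5. In bulk RNA, fewer cells that make a chain and less RNA per cell cannot be told apart.

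Same-numbered libraries deviated together, so the fit with the replicate number as a block stands beside the unpaired one. With the block 3 members were higher (Col12a1, Col4a6 and Col8a2) and 5 lower (Col3a1, Col5a3, Col7a1, Itih5 and Lamb1), against 13.1% of all tested genes called (7.63% higher and 5.5% lower). DESeq2 called 2 members higher (Col12a1 and Col8a2; 3.72% of all tested genes) and 4 lower (Col3a1, Col7a1, Itih5 and Lamb3; 1.79%), 5.51% of all genes in either direction. Both members called unpaired were among those called with the block and by DESeq2. Without empty vector 2 no member passed the unpaired test, and without fusion 1 or fusion 2 Col12a1 alone did, while the calls over all genes went from 341 to 139, 204 and 154. None of the 8 members called with the block kept its call in each of the 3 fits that left out both libraries of 1 number, which were added after the data were seen.

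**Figure D2:**
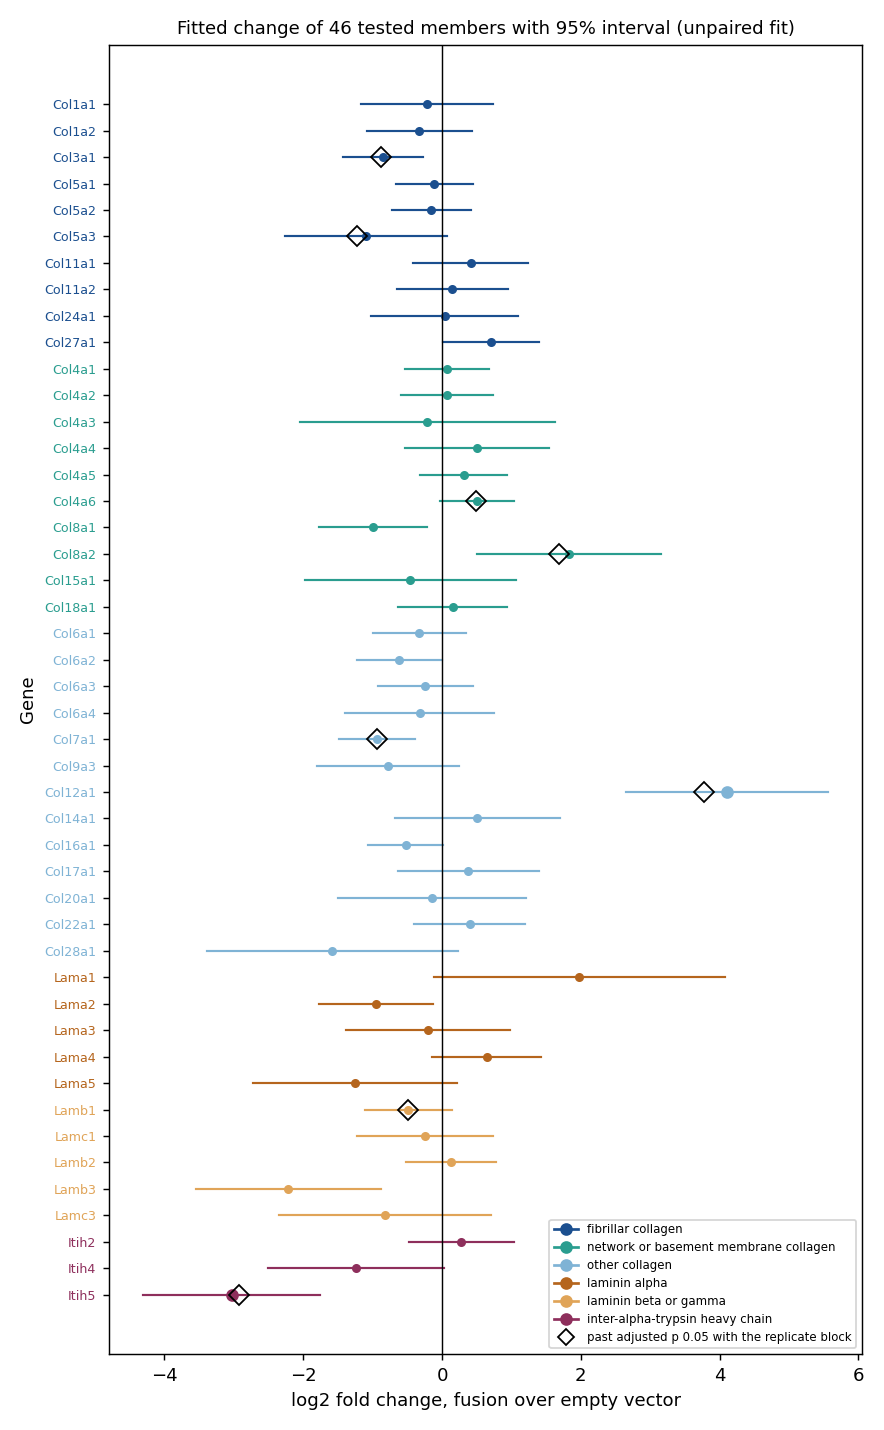
Fitted log2 fold change of fusion over empty vector (x axis) with its 95% interval for 46 tested members (y axis, coloured by class) in the unpaired fit. Large dots mark Col12a1 and Itih5, which passed adjusted p 0.05 unpaired, and open diamonds mark the fitted value with the replicate block for the 8 members that passed it.

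Col12a1 (ENSMUSG00000032332.16, chr9:79598991-79718831, minus strand, GRCm38) encodes the chain of type XII collagen, which binds along type I fibrils. It lay at 49.8, 23.7 and 36.2 CPM in the empty vector libraries, at 448, 1213 and 229 CPM in the fusion libraries and at 105 CPM in WT. Every fusion library was above every other library, and WT lay above all 3 empty vector libraries. Between libraries of the same number the fold was 8.99, 51.1 and 6.32. The log2 fold change was 4.11 (SE 0.63, 95% interval 2.65 to 5.56, edgeR adjusted p = 0.018), and with the replicate block 3.78 (adjusted p = 0.040). The call was lost without empty vector 2 (log2 fold change 3.87, adjusted p = 0.073), and with the block without both libraries numbered 3 (4.42, adjusted p = 0.27) or 1 (4.12, adjusted p = 0.32). Per kilobase its place among the 48 members moved from 25 with empty vector, and 19 in WT, to 9 with the fusion, at 54.7 ± 44.9 CPM per kb (SD, n = 3). Of its 8 tested neighbours within 1 Mb, looked at after the values were seen, none was called in the unpaired fit (2.04% of all tested genes). With the block, where 13.1% of all tested genes were called, Myo6 was higher (log2 fold change 0.55) and Cd109 lower (-1.01).

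Among the fibrillar collagens, which build the fibres, no member of 10 was called in the unpaired fit (2.04% of all tested genes). With the block 2 were lower (5.5% of all tested genes). Col3a1, the type III chain found with type I in skin and vessel walls, lay at 4325, 4650 and 3900 CPM with empty vector, 1737, 2660 and 2763 CPM with the fusion and 4181 CPM in WT. Its groups did not overlap, WT lay among the empty vector libraries, and empty vector exceeded fusion 2.49, 1.75 and 1.41 times in numbers 1 to 3. The log2 fold change was -0.85 (SE 0.25, adjusted p = 0.19) unpaired and -0.87 (adjusted p = 0.025) with the block, where the call was lost without number 2 (adjusted p = 0.14). Col5a3, a chain of type V, lay at 34.7, 65.4 and 83.6 CPM with empty vector, 10.8, 44.2 and 30.8 CPM with the fusion and 42.9 CPM in WT. The groups overlapped, and within each number the fusion library was the lower. Its log2 fold change was -1.10 (adjusted p = 0.50) unpaired and -1.22 (adjusted p = 0.034) with the block, lost there without number 3 (adjusted p = 0.19) or 1 (adjusted p = 0.072).

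The type I chains did not pass either test. Col1a1, added beside its partner after its values were seen, lay at 4166, 3919 and 1584 CPM with empty vector, 2226, 3986 and 2083 CPM with the fusion and 4074 CPM in WT. Col1a2 lay at 5341, 5932 and 3321 CPM, 2759, 5372 and 3518 CPM, and 6039 CPM in the same order. Both were lower in fusion 1 than in the other libraries numbered 1 and about level within number 2, so the groups overlapped, with log2 fold changes of -0.22 (95% interval -1.17 to 0.73) and -0.33 (-1.09 to 0.44). The ratio of Col1a1 to Col1a2 per length stayed between 0.430 and 0.727 over the 7 libraries. The ratio of Col3a1 to Col5a2 per length was 4.31 ± 0.94 with empty vector, 2.6 ± 0.35 with the fusion (SD, n = 3) and 3.28 in WT, and the groups did not overlap. Col3a1 alone did not overlap either, so the ratio is no separate support. The other fibrillar members (Col5a1, Col5a2, Col11a1, Col11a2, Col24a1 and Col27a1) had log2 fold changes of -0.15 to 0.70.

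Of the 10 tested network and basement membrane collagens, none passed unpaired (2.04% of all tested genes). With the block 2 were higher (7.63% of all tested genes). Col4a1 and Col4a2, the chains of the common basement membrane heterotrimer, lie head to head on chromosome 8, and their annotated starts share 22 bases (chr8:11312805-11312826). Col4a1 lay at 539, 486 and 298 CPM with empty vector, 477, 528 and 391 CPM with the fusion and 635 CPM in WT. Col4a2 lay at 324, 314 and 175 CPM, 289, 343 and 222 CPM, and 423 CPM in the same order. The groups overlapped, the log2 fold changes were 0.08 (95% interval -0.53 to 0.68) and 0.07 (-0.59 to 0.73), and both changed sign without empty vector 3 or fusion 2 and without both libraries numbered 3. Their ratio per length kept between 1.46 and 1.72 in all 7 libraries.

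Col4a6, a type IV chain of some epithelial basement membranes, lay at 14.5, 18.7 and 14.0 CPM with empty vector, 17.8, 26.1 and 22.9 CPM with the fusion and 11.3 CPM in WT. The fusion library was the higher within each number, by 1.23, 1.40 and 1.64 times, while fusion 1 lay below empty vector 2. It passed with the block only (log2 fold change 0.50, adjusted p = 0.043; unpaired 0.50, adjusted p = 0.50), and not there without number 1 (adjusted p = 0.077) or 2 (adjusted p = 0.25). Col8a2, a short-chain network collagen of the membrane under the corneal endothelium, lay at 0.368, 0.519 and 0.794 CPM with empty vector, 0.648, 2.71 and 2.62 CPM with the fusion and 1.06 CPM in WT. It was higher with the block (log2 fold change 1.68, adjusted p = 0.031; unpaired 1.83, adjusted p = 0.22), except without number 2 (adjusted p = 0.22). Its partner Col8a1, named after its values were seen, went the other way in the values, at 90.3, 149 and 187 CPM with empty vector against 66.7, 97.9 and 48.7 CPM with the fusion, but passed in neither fit (log2 fold change -0.99, adjusted p = 0.27 unpaired and 0.14 with the block).

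**Figure D3:**
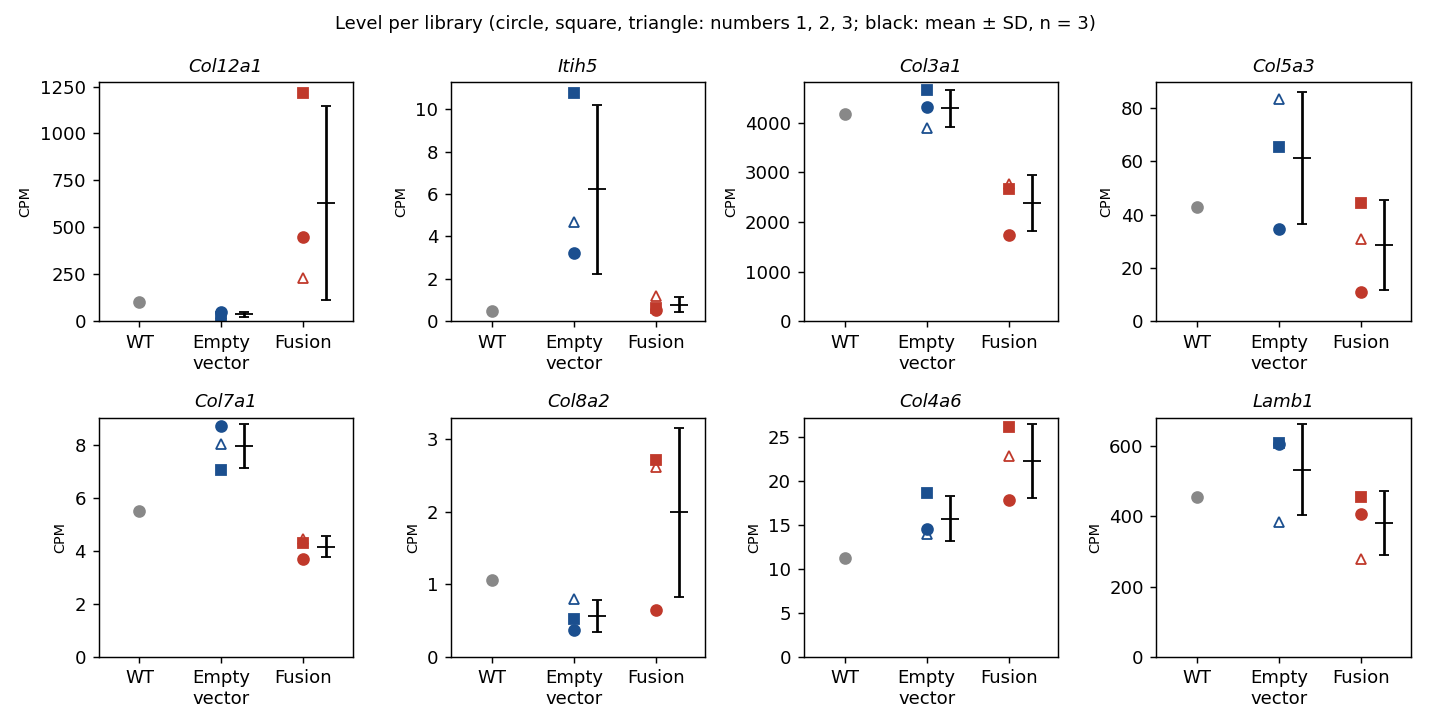
CPM in each library (y axis, linear) for the 8 members past adjusted p 0.05 with the replicate block, by group (x axis), with circles, squares and triangles for numbers 1, 2 and 3 and black bars for the mean ± SD of 3 libraries. Col12a1, Itih5, Col3a1 and Col7a1 show no overlap between fusion and empty vector, whereas Col5a3, Col8a2, Col4a6 and Lamb1 overlap and differ within each number.

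Among the other 13 tested collagens Col7a1, the anchoring fibril collagen under stratified epithelia, lay at 8.71, 7.06 and 8.04 CPM with empty vector, 3.70, 4.30 and 4.45 CPM with the fusion and 5.51 CPM in WT. The groups did not overlap and WT lay between them. The log2 fold change was -0.94 (SE 0.24, adjusted p = 0.12) unpaired and -0.93 (adjusted p = 0.019) with the block, lost there without number 1 (adjusted p = 0.070) or 2 (adjusted p = 0.11). Type VI, which forms beaded filaments, was abundant: Col6a1 lay at 722, 737 and 469 CPM with empty vector, 374, 691 and 473 CPM with the fusion and 932 CPM in WT. Col6a2 lay at 525, 522 and 320 CPM, 230, 345 and 316 CPM, and 652 CPM in the same order. Both were lower in fusion 1 than in any other library, neither passed in either fit (log2 fold changes -0.33 and -0.62, unpaired adjusted p = 0.87 and 0.45), and WT was the highest for both.

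Col6a5, a further type VI chain named after its values were seen, had reads enough for the reporting rule but not for the test filter. Its counts were 2, 4 and 1 with empty vector, 24, 53 and 3 with the fusion and 12 in WT, or 0.0334, 0.0716 and 0.0241 CPM, 0.457, 0.970 and 0.112 CPM, and 0.240 CPM. Each fusion library was above each empty vector library, and WT lay above fusion 3. In the fit without a filter on low counts, where 530 genes were called, its log2 fold change was 3.47 (edgeR adjusted p = 0.020). Only fusion 1, fusion 2 and WT reached 10 reads. Col6a5 thus met the reporting rule through the libraries where it was high, and that p-value is no separate support. The threshold of 10 reads in 3 libraries fell among genes of this kind: Col6a4, Itih4 and Lama1 were just inside with 12 reads in their third-highest library, and Col10a1, Col2a1 and Col23a1 were just outside with 8, 5 and 2. The remaining genes under it were Col9a1, Col9a2, Col6a6, Col13a1, Col19a1, Col25a1, Col26a1, Itih1 and Itih3, of which Col13a1 and Itih1 had no read in any library. A count of 0 allows up to 0.0501 to 0.112 CPM, depending on the library, for counting error only.

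No laminin of 11 was called in the unpaired fit (2.04% of all tested genes), and Lamb1 was lower with the block (5.5% of all tested genes). Lamb1, a beta chain of many basement membrane laminins, lay at 607, 608 and 384 CPM with empty vector, 407, 456 and 279 CPM with the fusion and 456 CPM in WT. The groups overlapped because empty vector 3 lay below fusion 1 and 2, and within each number empty vector exceeded fusion, by 1.49, 1.33 and 1.38 times. The log2 fold change was -0.49 (SE 0.27, adjusted p = 0.65) unpaired and -0.48 (SE 0.08, adjusted p = 0.013) with the block, lost there without number 2 (adjusted p = 0.095). Its gamma partner Lamc1 lay at 385, 438 and 156 CPM with empty vector, 287, 376 and 164 CPM with the fusion and 345 CPM in WT. Lamc1 overlapped fully (log2 fold change -0.24, 95% interval -1.22 to 0.74), and the sign turned without empty vector 2 or fusion 3.

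The alpha chains set which receptor a laminin binds. Lama5, the widespread epithelial alpha chain, lay at 115, 149 and 22.0 CPM with empty vector, 33.3, 63.0 and 23.5 CPM with the fusion and 14.8 CPM in WT. Empty vector 3 sat with the fusion libraries, and the log2 fold change was -1.25 (adjusted p = 0.58 unpaired, 0.17 with the block). Lama4, the alpha chain of vessels and mesenchymal cells, lay at 40.2, 61.3 and 57.8 CPM with empty vector, 64.5, 128 and 55.6 CPM with the fusion and 64.4 CPM in WT (log2 fold change 0.64, adjusted p = 0.61). The ratio of Lama5 to Lama4 per length was 1.52, 1.30 and 0.202 with empty vector, 0.274, 0.260 and 0.225 with the fusion and 0.122 in WT, so empty vector 1 and 2 stood apart from the other 5 libraries. Lama1, the embryonic alpha chain, was rare, at 0.0836, 0.0537 and 0.289 CPM with empty vector and 0.705, 0.806 and 0.0374 CPM with the fusion, with 0.160 CPM in WT. The libraries numbered 3 ran opposite to the others, and the fitted log2 fold change was 1.98 (adjusted p = 0.50 unpaired and 0.34 with the block). It was called higher in the unpaired fit without both libraries numbered 3 (log2 fold change 3.43, adjusted p = 0.040).

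Lamb3, the beta chain of the laminin that anchors epidermis, lay at 1.04, 1.5 and 2.48 CPM with empty vector, 0.305, 0.604 and 0.112 CPM with the fusion and 0.842 CPM in WT. The groups did not overlap, and WT lay between them. Its log2 fold change was -2.22 (SE 0.58; edgeR adjusted p = 0.13 unpaired and 0.063 with the block), with DESeq2 adjusted p = 0.0049 and, without a filter on low counts, edgeR adjusted p = 0.031. With the block and without both libraries numbered 3, where 19.6% of all tested genes were called, Lama1 and Lama4 were higher and Lama2, Lama5, Lamb1, Lamb3 and Lamc1 lower. Over all 47 members that fit gave 5 higher (11.2% of all genes) and 12 lower (8.39%). Of the members 21.3% had their lowest level of each group in the library numbered 3 in both groups, against 27.8% of all tested genes.

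**Figure D4:**
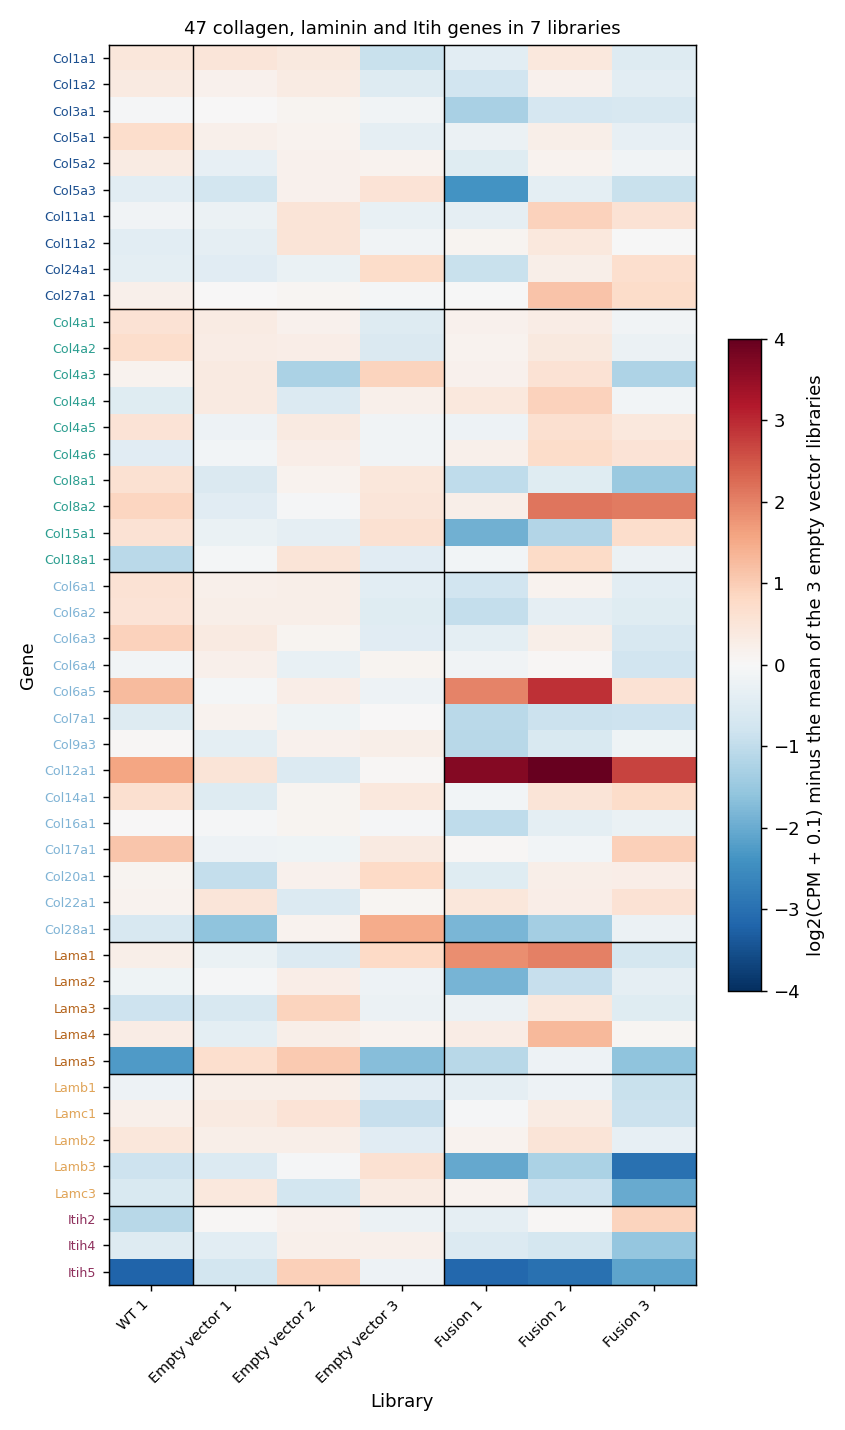
Level of 47 members with reads (rows, ordered by class) in the 7 libraries (columns) as log2(CPM + 0.1) minus the mean of the 3 empty vector libraries, with the colour scale limited to -4 to 4. Col12a1 is high in all 3 fusion libraries and Itih5 low in them and in WT, while Lama1, Lama5 and Lamc1 differ between the libraries numbered 3 and the others of their group.

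Itih5 (ENSMUSG00000025780.7, chr2:10153571-10256529, plus strand) lay at 3.23, 10.8 and 4.69 CPM with empty vector, 0.534, 0.604 and 1.197 CPM with the fusion and 0.501 CPM in WT. These were 193, 601 and 195 reads, 28, 33 and 32 reads, and 25 reads. All fusion libraries lay below all empty vector libraries, and WT lay with the fusion libraries, not with empty vector. Empty vector exceeded fusion 6.05, 17.8 and 3.92 times in numbers 1 to 3. The log2 fold change was -3.03 (SE 0.55, 95% interval -4.30 to -1.77, edgeR adjusted p = 0.033) and -2.92 (adjusted p = 0.018) with the block. The call was lost without empty vector 2 (-2.37, adjusted p = 0.083), fusion 1 (-2.82, adjusted p = 0.13), fusion 2 (-2.88, adjusted p = 0.14) or both libraries numbered 3 (-3.60, adjusted p = 0.077), and with the block without number 1 (-3.13, adjusted p = 0.074).

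Itih2, the other measured heavy chain gene of that locus, lies next to Itih5 on chromosome 2 and encodes a heavy chain of the plasma inhibitor. It lay at 28.3, 30.8 and 23.3 CPM with empty vector, 21.1, 28.03 and 51.1 CPM with the fusion and 12.6 CPM in WT. Fusion 3 was the highest library and the groups overlapped (log2 fold change 0.28, 95% interval -0.47 to 1.03), with the sign turned without fusion 3. The ratio of Itih2 to Itih5 per length was 22.4, 7.30 and 12.7 with empty vector, 101, 118 and 109 with the fusion and 63.9 in WT. None of the 6 tested neighbours of Itih5 within 1 Mb, looked at after the values were seen, was called in either fit. Of all tested genes 2.04% were called unpaired and 13.1% with the block. Itih4, a heavy chain of the acute phase, stayed near the floor, at 0.201, 0.358 and 0.361 CPM with empty vector, 0.172, 0.147 and 0.0374 CPM with the fusion and 0.180 CPM in WT (log2 fold change -1.24, adjusted p = 0.48).

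Against the single WT library the spread was borrowed from the other groups, and all 3 comparisons share libraries. Between empty vector and WT no gene passed in edgeR (0% of 16731; 746 genes, or 4.46%, at an unadjusted p under 0.05, 2 of them members) and 77 genes (0.46%; 0.263% higher and 0.197% lower) passed in DESeq2, with Itih5 the only member (higher with empty vector, edgeR log2 fold change 3.63, adjusted p = 0.76; DESeq2 adjusted p = 0.0010). Between fusion and WT 73 genes (0.436%; 0.341% higher and 0.0956% lower) passed in edgeR and no member did, 9 of 47 members having an unadjusted p under 0.05 against 7.67% of all tested genes, and DESeq2 called 498 genes (2.98%; 2.19% higher and 0.789% lower) with Col12a1 the only member (edgeR log2 fold change 2.59, adjusted p = 0.48; DESeq2 adjusted p = 0.022). So the level of Itih5 in WT (0.501 CPM) lay next to the fusion libraries, and that of Col12a1 in WT (105 CPM) lay between the groups. With the replicate block, a fit of all 7 libraries added after the data were seen that leaves 2 residual degrees of freedom, 20 genes passed between empty vector and WT (0.12%, with 0.0359% higher and 0.0837% lower), none of them a member. By its label alone, WT was put in number 1 with empty vector 1 and fusion 1. No correlation of deviations was computed for WT. Between fusion and WT that fit called 1642 genes (9.81%; 4.57% higher and 5.25% lower) and 2 members, named after their values were seen. Col18a1, a basement membrane collagen whose end fragment is endostatin, was higher with the fusion than in WT (log2 fold change 1.08, adjusted p = 0.013; unpaired 1.30, adjusted p = 0.59), at 81.7, 148 and 74.4 CPM against 41.2 CPM. Col5a2, a type V chain, was lower (-0.82, adjusted p = 0.021; unpaired -0.47, adjusted p = 0.95), at 851, 1336 and 1095 CPM against 1520 CPM. The empty vector libraries lay on the same side of WT for both genes, at 83.7, 126 and 64.0 CPM for Col18a1 and 967, 1346 and 1334 CPM for Col5a2. Col12a1 and Itih5 did not pass against WT with the block (fusion against WT, adjusted p = 0.24 and 0.95; empty vector against WT, adjusted p = 0.50 and 0.14). Besides the vector, the labels give times of virus and fresh medium for the vector groups and none for WT. They do not say what else set the WT library apart.

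The genes that process, accompany or bind these proteins were taken from 4 lists. None of their tested genes passed the unpaired edgeR test. At an unadjusted p under 0.05 were 3, 1, 6 and 3 genes of the lists, in the order given here, and 10.9% of all tested genes. DESeq2 called 2, 1, 1 and 2 of their 31, 24, 19 and 13 tested genes, against 5.51% of all tested genes. The calls with the block, where 13.1% of all tested genes passed, are given for each list, with genes named after their values were seen. Of 31 tested genes for collagen processing and crosslinking (median log2 fold change -0.17), 1 was higher with the block, the procollagen proteinase enhancer Pcolce2 (log2 fold change 1.56), and 3 were lower, the procollagen proteinases Bmp1 (-0.38) and Adamts14 (-1.43) and the lysyl oxidase family gene Loxl4 (-0.70). Adamts14 lay at 55.6, 70.2 and 40.1 CPM with empty vector and 16.5, 27.3 and 18.03 CPM with the fusion, did not overlap between groups and missed the unpaired threshold narrowly (adjusted p = 0.052). The most abundant genes of that list, P4hb, a subunit of the enzyme that hydroxylates collagen prolines, and Lox, which crosslinks collagen, had log2 fold changes of -0.03 and 0.19.

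Of 24 basement membrane and matrix partners (median -0.09), 2 were higher with the block, the laminin-binding linker Nid1 (0.61) and Tinagl1 (0.39), and 4 were lower, the proteoglycans Agrn (-0.78), Dcn (-1.01) and Lum (-1.93) and the matricellular gene Postn (-1.86). Lum and Dcn were highest in empty vector 3, at 141 and 801 CPM, and within each number lower with the fusion. Postn lay at 1130, 1204 and 2912 CPM with empty vector, 258, 633 and 512 CPM with the fusion and 5852 CPM in WT, so its groups did not overlap. Thbs1 and Fn1, the most abundant of that list, had log2 fold changes of 0.60 and -0.11 and passed in neither fit.

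Of 19 collagen and laminin receptors (median -0.20), the integrin subunit Itga3 (0.85) and the collagen receptor Ddr1 (0.39) were higher with the block, and Itga6 (-0.63), Itga7 (-0.85), Itga10 (-1.06) and Ddr2 (-0.50) were lower. Itgb1 and Cd44, the most abundant, had log2 fold changes of -0.23 and -0.20. Of 13 tested genes around hyaluronan (median -0.06), the synthase Has1 (0.78), the hyaluronidase Hyal2 (0.36) and the hyaluronan-degrading gene Cemip (2.20) were higher with the block, and Tnfaip6 (-0.82) was lower. Cemip lay at 7.82, 6.55 and 2.41 CPM with empty vector and 22.4, 47.9 and 11.1 CPM with the fusion, without overlap. Ambp, which encodes the light chain bikunin to which heavy chains are bound in plasma, had no read in any library, and Vcan, the abundant hyaluronan-binding proteoglycan, had a log2 fold change of -0.39. Of the 16 mesenchymal markers none passed unpaired, and Cdh2 was higher and Zeb2, Snai2 and Fap lower with the block. Of 10 tested epithelial markers (median log2 fold change 0.79) 2 were higher unpaired, where 2.04% of all tested genes were called. They were Krt18 (0.829 to 5.92 CPM, mean of empty vector to mean of fusion) and Foxa1 (0 to 1.54 CPM). With the block 4 epithelial markers were higher and 1 lower, where 13.1% of all tested genes were called. The part of these marker genes in the values of the members was not tested.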

How the data were processed

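The deposited values are raw read counts by gene in 12 lane tables, which the authors made with STAR and HTSeq on GRCm38 per the submitters' processing notes. The sources used here give no version, annotation release or strand setting. Lanes were summed per library, since the 2 lanes showed no difference beyond counting error. Rows that name no gene stayed out: 5.73 to 6.93% of a library's reads lay outside genes, 1.22 to 1.48% were ambiguous and 36.1 to 45.3% had several alignments, so near-identical genes can be undercounted. Exons of 13 of the 60 members overlap a gene on the other strand, including Col4a1, Col4a2, Col5a1, Lama2, Lama3, Col15a1, Col22a1 and Lamc3; without a known strand setting such reads cannot be told apart. Symbols and positions come from GENCODE M21 (46005 of 46603 rows matched).

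Fusion and empty vector were compared in their 6 libraries with edgeR 4.0.16 (R 4.3.3; TMM, filterByExpr with a minimum count of 10, robust quasi-likelihood test, Benjamini-Hochberg over 16731 genes), and comparisons with WT in all 7. A call is an adjusted p below 0.05. CPM uses TMM factors, and CPM per kb divides by the exon length of the transcript with the longest coding sequence. No label ties replicate numbers to a batch. Deviations from group means correlated within numbers (r = 0.535, 0.488 and 0.459) and not across (-0.427 to -0.0497), so the numbers were taken to pair the samples. Centring on the mean of 3 libraries ties the values across numbers to those within, so they are no separate support. Both libraries numbered 3 also had other lanes and the fewest counts, and the part of this in the correlations was not tested. Alternatives were the replicate block, DESeq2 1.42.0, RLE factors, no filter on low counts, all 7 libraries, and leaving out replicates. The edgeR script was tested on simulated data.

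Named with values were members called unpaired or with the block, the 2 most abundant and the most changed of each class, members around the read threshold and the 2 most abundant genes of each related list; other members given with values are said to be named after their values were seen. The members and lists were chosen with earlier results of these data known. The values of 1 member are not reported here or plotted, though it is counted.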

Additional observations from a re-analysis of the deposited data

How the results depend on the processing

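The count of genes called between fusion and empty vector (341) was 2196 with the replicate block, 922 with DESeq2, 530 with no filter on low counts, and, with the block, 3276 without both libraries numbered 3, 1489 without both numbered 1 and 421 without both numbered 2; leaving out 1 library gave 139 to 373. Of the members, 2 were called, 8 with the replicate block, 6 with DESeq2, 17, 5 and 3 with the block without both libraries numbered 3, 1 and 2, and 0 to 2 when leaving out 1 library. In the related lists 0 genes were called, 20 with the replicate block, 6 with DESeq2, 1 with RLE factors, 3 with no filter, 1 without both libraries numbered 3, 29, 12 and 6 with the block without numbers 3, 1 and 2, and 0 to 2 when leaving out 1 library. Between empty vector and WT 0 genes became 77 with DESeq2, 15 with no filter and 20 with the replicate block (0 to 5 leaving out 1 library), and 0 members became 1 with DESeq2. Between fusion and WT 73 genes became 498 with DESeq2, 245 with no filter and 1642 with the replicate block (1 to 118 leaving out 1 library), and 0 members became 1 with DESeq2 and 2 with the block. For these the cause was not tested. The fitted change turned sign for Col4a1 (-0.14 without empty vector 3, -0.024 without fusion 2, -0.015 without both libraries numbered 3, also with the block), Col4a2 (-0.17, -0.086, -0.0021 and -0.0056 in that order), Itih2 (-0.16 without fusion 3, -0.26 without both libraries numbered 3, -0.27 with the block too) and Lamc1 (0.029 without empty vector 2, 0.023 without fusion 3); leaving out 1 library their values ranged from -0.14 to 0.25, -0.17 to 0.22, -0.16 to 0.52 and -0.58 to 0.029. Of the 8 members called with the block, 6, 3 and 3 were called with it without both libraries numbered 3, 1 and 2. The log2 fold change of Itih5 between fusion and WT (0.60) was -0.10 with the block. Genes under about 0.1 CPM rest on few reads.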
